A study of Drosophila melanogaster with 8 samples.

Results

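The 7 genes *Mst84Da*, *Mst84Db*, *Mst84Dc*, *Mst84Dd*, *Mst87F*, *Mst98Ca* and *Mst98Cb* form the Mst(3)CGP family of *Drosophila melanogaster*, which encodes proteins of the sperm tail built from Cys-Gly-Pro repeats. They were taken by their symbols as a family, and the choice was made with earlier results of these data known. All 7 were among the 15612 genes of the testis table, and 6 of them were among the 15735 named genes of the larval table, where *Mst98Ca* was not analysed here.

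The data are mRNA levels in 8 libraries made from poly(A)-enriched RNA, 2 in each of 4 groups. By their genotype labels, the tgs1hypo testes came from adult males that carry tgs1hypo, a partial loss-of-function combination of the alleles *moi* CB0 and *tgs1* 15-11, and in which *bam*-gal4 drives a *moi* cDNA in the germline (genotype label bam>moi;tgs1hypo). By the same labels, the WT testes carry the same combination with a *tgs1* cDNA under the same driver (bam>tgs1;tgs1hypo), and are counted as wild type because that cDNA restores *tgs1*. The titles of these libraries say only WT and tgs1hypo, and the paper describes the sequenced testes as wild type and mutant and names no transgene in them, so which genotypes were sequenced is not settled. The titles' names are used here, and a testis comparison may therefore be of mutant with wild type or of the mutant with *moi* against the mutant with *tgs1*. The tgs1KO larvae were second instar larvae of the CRISPR/Cas9 allele tgs12-3, and the WT larvae carried tgs12-4, a line from the same procedure with no mutation in either reading frame. A testis library used about 100 adult testes by the labels, or as many pairs by the paper, and a larval library about 80 whole larvae, raised at 25 °C. The labels do not say whether replicates came from separate cultures, so each p-value measures only the spread between these libraries.

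Tgs1 adds the trimethylguanosine cap to the small nuclear RNAs (snRNAs) that splice pre-mRNA, and it is encoded on the same mRNA as the telomere protein Modigliani (Moi). Transcription of the Mst(3)CGP genes belongs to the primary spermatocyte programme, which depends on a testis-specific form of the MIP/dREAM complex (tMAC) and on testis-specific TBP-associated factors (testis TAFs). Their mRNAs are then stored through the meiotic divisions and translated in elongating spermatids, where the cysteine-rich products are laid down along the flagellum. The study describes tgs1hypo testes as arrested at meiosis and without post-meiotic cells, so in whole-testis RNA fewer cells of a stage and less RNA per cell cannot be told apart.

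The family falls into 2 kinds of gene by structure, as the plot of gene models shows. All members lie on 3R of the BDGP6.54 assembly, and the 4 *Mst84D* genes sit within 2956 bases (3R:7363307-7366262). *Mst84Dd*, *Mst84Dc* and *Mst84Db* follow each other on the minus strand with 480 and 486 bases between them, and *Mst84Da* starts 222 bases beyond *Mst84Db* on the plus strand. *Mst87F* lies alone at 3R:13827151-13828008, and the plus-strand genes *Mst98Ca* (3R:28291338-28292656) and *Mst98Cb* (3R:28292798-28293863) are 141 bases apart.

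The 4 *Mst84D* genes and *Mst87F* are small genes with 1 intron in each annotated transcript. Their mRNAs measure 358 to 515 bases and encode 55 to 74 residues. In *Mst84Db*, *Mst84Dc*, *Mst84Dd* and *Mst87F* the intron lies in the 5′ UTR. It measures 53 bases in *Mst84Db*, 57 or 61 in the 2 transcripts of *Mst84Dc*, 52 in *Mst84Dd*, and 90 or 343 in the 2 transcripts of *Mst87F*. *Mst84Da* is the exception, with a 55-base intron (3R:7365972-7366026) that interrupts the coding sequence. *Mst98Ca* and *Mst98Cb* have no annotated intron, and their mRNAs of 1319 and 1066 bases encode 334 and 265 residues.

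**Figure D1:**
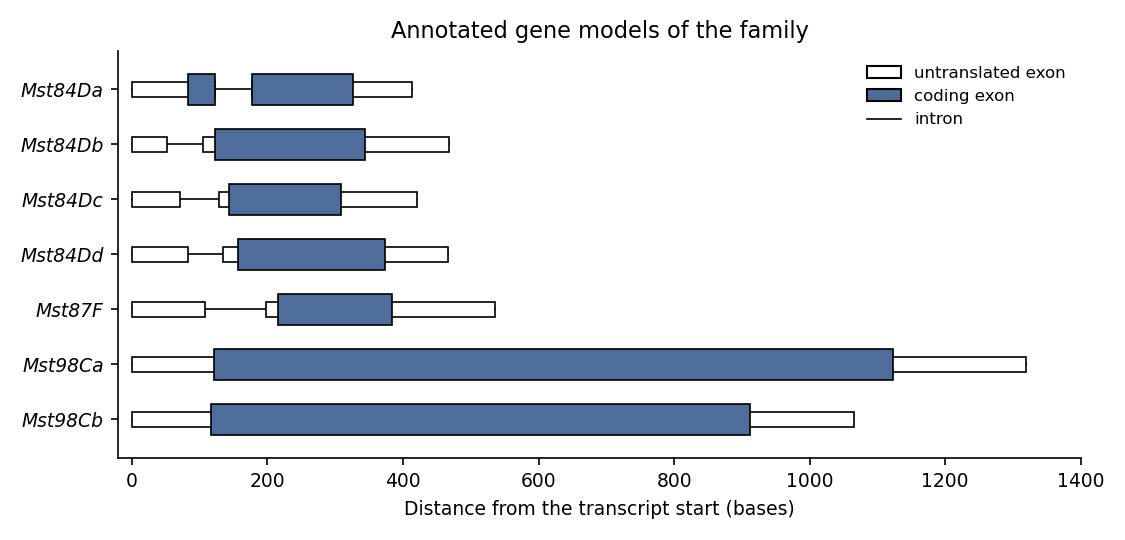
Annotated gene models of the 7 members, 1 transcript each, drawn to scale against the distance in bases from the transcript start, with coding exons as tall filled boxes, untranslated exons as open boxes and introns as lines. The 4 Mst84D genes and Mst87F have 1 intron near the 5′ end, which lies inside the coding sequence only in Mst84Da, and the 2 Mst98C genes have none.

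The study reports the *Mst84Da* intron as retained in tgs1hypo testes, by RNA sequencing and by RT-PCR. It reports normal splicing with a *tgs1* transgene but not with a *moi* transgene. Whether retention bears on the level of the gene was not tested here. The splice sites of the *Mst84Da* intron are shown because it is the only intron of the family that lies between coding exons, and *Mst84Da* is the member with the largest fall below. They are given as the study lists them, from 5′ to 3′ on the plus strand. The first runs from 3 exon bases into 6 intron bases and the second from 20 intron bases into 3 exon bases, with the first and last 2 bases of the intron in capitals.
*Mst84Da* 5′ splice site: gggGTatgt
*Mst84Da* 3′ splice site: cttttaatatgatttatcAGggc

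The entry for the targeted locus differed between the testis groups. Levels are given in FPKM, counts of sequenced fragments divided by the length of the transcript and by the size of the library. Whether they were corrected for fragment length is not known, so the order of levels between the short *Mst84D* and *Mst87F* mRNAs and the longer *Mst98C* mRNAs, and the shares of the family below, hold only for these FPKM values. *moi*, the only entry for the mRNA that encodes both Moi and Tgs1, was at 3.81 and 2.71 FPKM in tgs1hypo testes, against 10.1 and 11.4 FPKM in WT testes (log2 change -1.47, SE 0.16, limma adjusted p = 0.000389). The lower level in libraries whose genotype label has a driven *moi* cDNA goes against that label if reads from the cDNA were counted in this entry. *tgs1* itself was not analysed here, and an entry for both reading frames does not settle which cDNA, if any, a library carries. In larvae *moi* was at 6.41 and 6.85 FPKM in tgs1KO, against 4.64 and 7.42 FPKM in WT (adjusted p = 0.802), but a small lesion in the reading frame need not alter this value, so it does not check the larval labels.

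In testes the family was among the most abundant mRNAs, and its total level was lower in tgs1hypo. The 7 members summed to 12861 and 12369 FPKM in the 2 tgs1hypo libraries, against 22601 and 25168 FPKM in the 2 WT libraries. This was 1.57 and 1.54% of all FPKM in tgs1hypo testes, against 2.85 and 3.05% in WT testes. The groups did not overlap, and on the log2 scale the percentage was lower by 0.92 in tgs1hypo (exact two-sided permutation test, p = 0.333, the smallest that 2 libraries against 2 can give).

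**Figure D2:**
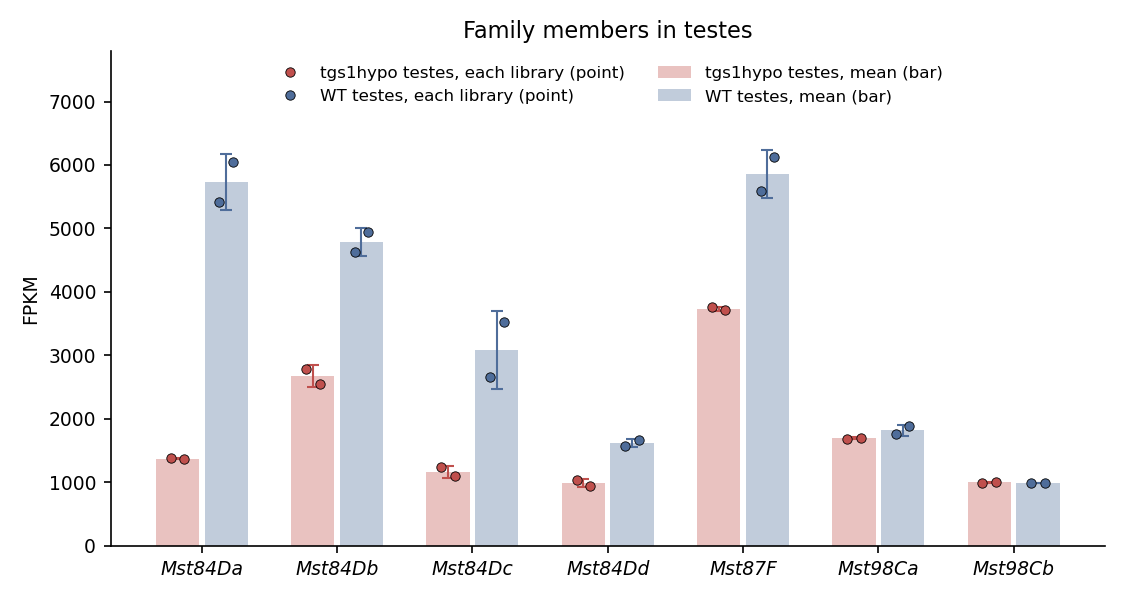
FPKM of each member in testes, with tgs1hypo left of WT for each gene. Points are the 2 libraries, bars their mean and error bars the SD (n = 2 libraries a group). The 4 Mst84D genes and Mst87F are lower in both tgs1hypo libraries than in both WT libraries, while the 2 groups lie close together for Mst98Ca and Mst98Cb.

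*Mst84Da* had the largest fall of the family. It was at 1374 and 1366 FPKM in tgs1hypo testes, against 5419 and 6048 FPKM in WT testes. It ranked 45th and 46th among all genes in the tgs1hypo libraries, against 4th in both WT libraries. The log2 change was -2.06 (SE 0.088, adjusted p = 1.56e-05 by limma), a level 0.239 times that of WT, and only 1.24% of the 11343 genes tested changed by as much or more in this direction.

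*Mst84Dc*, the second gene of the minus-strand row, came next. It was at 1234 and 1096 FPKM in tgs1hypo testes, against 2656 and 3524 FPKM in WT testes. The WT libraries lay further apart than for any other member (SD 614 FPKM, n = 2), but both stood above both tgs1hypo libraries. The log2 change was -1.39 (SE 0.14, limma adjusted p = 0.000262).

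These 2 members were the ones called lower, out of 7, where a call needed a limma p adjusted over all genes under 0.05 and a log2 change of at least 1 in size. Among all genes tested 7.11% were called lower by that rule and 3.54% higher. No member was called higher.

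*Mst84Db*, *Mst84Dd* and *Mst87F* passed the adjusted p but fell by less than 1 on the log2 scale. *Mst84Db* was at 2792 and 2547 FPKM in tgs1hypo testes, against 4627 and 4936 FPKM in WT testes (log2 change -0.84, SE 0.093, limma adjusted p = 0.000391). *Mst84Dd* was at 1032 and 941 FPKM in tgs1hypo testes, against 1571 and 1668 FPKM in WT testes (-0.72, SE 0.077, adjusted p = 0.00036). *Mst87F*, whose leader sequence is the classic case of translational control in spermatogenesis, was at 3755 and 3710 FPKM in tgs1hypo testes, against 5587 and 6127 FPKM in WT testes (-0.65, SE 0.095, adjusted p = 0.00134). In each of these 3 genes both tgs1hypo libraries were below both WT libraries. By the adjusted p alone 5 of 7 members were lower and 0 higher, and of all genes tested 23.4% were lower and 34.3% higher (62.8% had an unadjusted p under 0.05).

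The pair without introns did not pass the test. *Mst98Ca* was at 1679 and 1701 FPKM in tgs1hypo testes, against 1761 and 1882 FPKM in WT testes. Its libraries did not overlap between the groups, but the log2 change was -0.11 with a 95% interval from -0.28 to 0.07 (limma adjusted p = 0.251). *Mst98Cb* was at 995 and 1008 FPKM in tgs1hypo testes, against 980 and 983 FPKM in WT testes, a log2 change of 0.03 with an interval from -0.12 to 0.18 (adjusted p = 0.705). Counting *Mst98Ca*, 6 members had both tgs1hypo libraries below both WT libraries, as did 32.6% of all genes tested, and *Mst98Cb* had both above, as did 47.7%. The intervals of the Mst98C pair leave out a fall as large as that of any of the other 5 members.

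**Figure D3:**
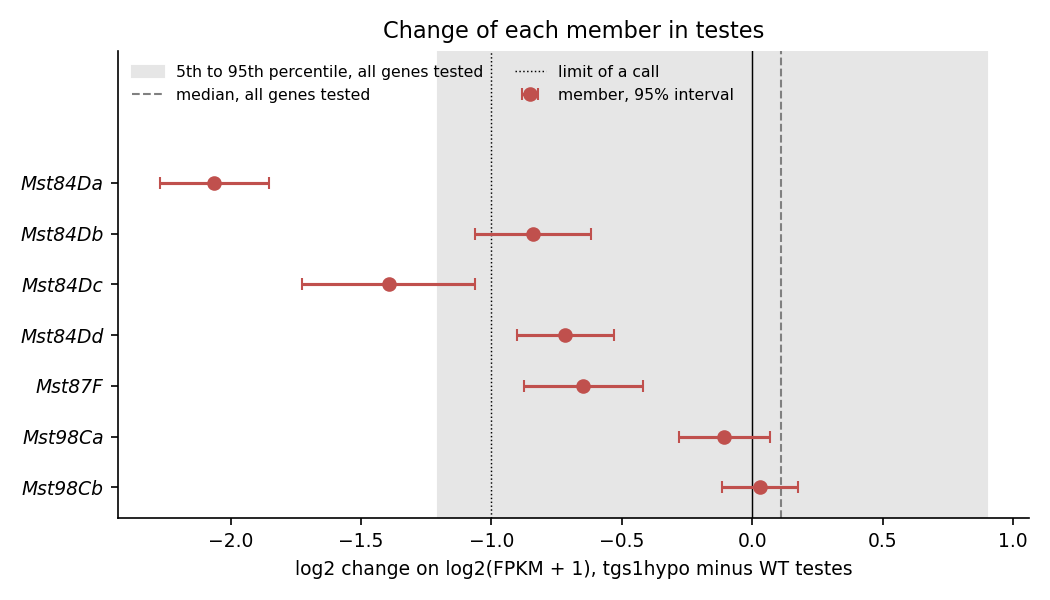
Log2 change of each member in testes, tgs1hypo minus WT on log2(FPKM + 1), with the 95% interval from limma; the grey band spans the 5th to the 95th percentile of all 11343 genes tested (-1.20 to 0.90), the dashed line is their median (0.11) and the dotted line the limit of a call. Mst84Da and Mst84Dc lie below the band, the other Mst84D genes and Mst87F lie inside it and below 0, and the intervals of both Mst98C genes include 0.

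The directions of the Mst98C pair depended on how libraries were scaled. The median log2 change of all genes tested was 0.11 with FPKM as deposited and 0.01 after median-of-ratios scaling, under which *Mst98Ca* was at -0.22 and *Mst98Cb* turned to -0.08. Quantile normalization moved them to 0.35 and 0.27, both past the adjusted p. The other 5 members kept their direction and an adjusted p under 0.05 in all 14 alternatives, with *Mst84Da* between -2.17 and -1.98 and *Mst87F* between -0.76 and -0.58.

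Set against one another within each library, a measure that a change of scale of the whole library does not move, the members split differently. By construction the differences on this measure balance out over the members. A large fall of 1 member thus raises the others, and the values are not independent. *Mst84Da* stood 0.29 and 0.23 below the mean of the other 6 members in tgs1hypo testes, against 1.18 and 1.20 above it in WT testes, on log2(FPKM + 1). That is a difference of -1.45, and *Mst84Dc* differed by -0.67, the only other member to stand lower beyond the spread between libraries. *Mst84Db* differed by -0.02, less than the spread between libraries, while *Mst84Dd* and *Mst87F* stood higher relative to the rest by 0.12 and 0.20, although their own levels fell. *Mst98Ca* and *Mst98Cb* stood higher relative to the rest by 0.83 and 0.99. The groups did not overlap for any of these except *Mst84Db*, with an exact permutation p of 0.333, the smallest possible, for each of the 6 and 0.667 for *Mst84Db*. Groups without overlap were common in these libraries. On FPKM itself 32.6% of all genes tested had both tgs1hypo libraries below both WT libraries and 47.7% both above. The share was not computed for the measure used here.

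The order of the levels changed with it. In both WT testis libraries *Mst87F* was first and *Mst84Da* second, although their ranges over the 2 libraries overlapped. They were followed in both libraries by *Mst84Db*, *Mst84Dc*, *Mst98Ca*, *Mst84Dd* and *Mst98Cb*. In tgs1hypo testes *Mst87F* was still first, followed by *Mst84Db*, *Mst98Ca*, *Mst84Da* and *Mst84Dc*, and *Mst98Cb* and *Mst84Dd* overlapped at the low end. As a share of the summed FPKM of the family, *Mst84Da* took 10.7 and 11.0% in tgs1hypo testes, against 24.0% in both WT libraries. The Mst98C pair took 20.8 and 21.9% in tgs1hypo testes, against 12.1 and 11.4% in WT testes.

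**Figure D4:**
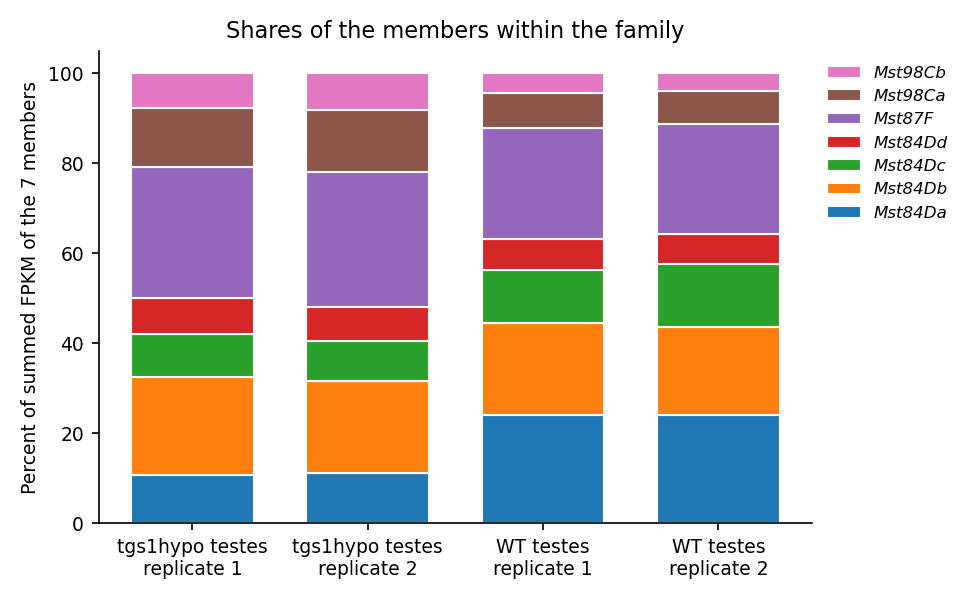
Share of each member in the summed FPKM of the family, in percent, with 1 stacked bar for each testis library, tgs1hypo left of WT. The Mst84Da share is 10.7 and 11.0% in the tgs1hypo libraries and 24.0% in each WT library, and the bars of Mst98Ca and Mst98Cb are thicker in tgs1hypo.

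The members with an intron and the members without one were set beside all other genes of their kind, in classes chosen after the members' values were seen and given with no test. Of 7688 protein-coding genes whose shortest annotated intron was under 100 bases, which include the 5 members with an intron, 5.81% were called lower and the median log2 change was 0.10. Of 1410 protein-coding genes without an annotated intron, 3.62% were called lower and the median was 0.37. Of 1004 whose shortest intron was 100 bases or more, 5.28% were called lower and the median was 0.15, close to the values for short introns. Called higher were 2.24% of the 7688, 9.57% of the 1410 and 3.39% of the 1004 genes. Among genes at the level of this family, with a mean of at least 500 FPKM, the median was -0.41 over 108 genes with a short intron, of which 58.3% passed the adjusted p with a fall and 20.4% were called lower. It was 0.08 over 54 genes without an intron, of which 24.1% passed it with a fall and 1.85% were called lower. It was 0.10 over 15 genes whose shortest intron was 100 bases or more, of which 26.7% passed it with a fall and 6.67% were called lower. Over all 192 genes at this level 13.5% were called lower and 3.1% higher. Called higher were 0% of the 108, 11.1% of the 54 and 0% of the 15 genes. The members are part of these classes: the 108 genes include the 5 members with an intron, and the 1410 and the 54 genes include the 2 without. All 5 members with an intron passed the adjusted p, and neither of the 2 without did.

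*Mst84Da* shares sequence with a gene on the other strand whose level moved the opposite way. *MstProx* (FBgn0015770, 3R:7365939-7369305), a gene of the Toll receptor family, covers 269 of the 358 exon bases of *Mst84Da* and all 55 bases of its intron. It was at 33.7 and 33.5 FPKM in tgs1hypo testes, against 1.72 and 1.47 FPKM in WT testes (log2 change 3.74, SE 0.11, limma adjusted p = 7.35e-06). No source gives the strand of the reads or of the counting, so reads from the stretch they share cannot be told apart. Multiplied by exon length in kilobases, which undoes the scaling to length, *MstProx* was at 110.0 and 109.2 in tgs1hypo testes, against 5.60 and 4.80 in WT testes. On the same scale *Mst84Da* was at 492 and 489 in tgs1hypo testes, against 1940 and 2165 in WT testes. How reads from the shared stretch were assigned, or whether they were counted at all, is not known. These values therefore set no limit to what the overlap could have moved, and its part was not tested. The other overlap in the family, of *Mst87F* with the antisense RNA *lncRNA:CR43300*, covers 41 exon bases, and that RNA was at 0 in both tgs1hypo libraries and at 0 and 0.198 FPKM in the WT libraries.

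Genes that switch on the spermatocyte programme moved in both directions in tgs1hypo testes. Of 13 tMAC and testis TAF genes, 3 were called higher and 0 lower, with a median log2 change of 0.15 against 0.11 for all genes tested. Among all genes tested 3.54% were called higher and 7.11% lower. *Taf12L*, the most abundant of the list, was at 301 and 260 FPKM in tgs1hypo testes, against 86.0 and 73.4 FPKM in WT testes (limma adjusted p = 3.19e-05). *comr* (log2 change 1.20) and *nht* (1.05) were the other called genes. By the adjusted p alone 6 were higher and 2 lower, as were 34.3% and 23.4% of all genes tested. The 2 lower ones were the testis TAF genes *can* (-0.91, limma adjusted p = 0.000369) and *sa* (-0.98, adjusted p = 0.000342), both just short of the limit of a call.

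Of 32 other sperm and spermatid genes, 5 were called lower and 0 higher, against 7.11% and 3.54% of all genes tested. The median log2 change of the 32 was -0.23, against 0.11 for all genes tested. The 5 called lower were *kl-5* (-2.52) and *kl-2* (-1.27), Y-linked dynein heavy chains of the sperm axoneme, *janB* (-2.03), *Mst36Fa* (-1.08) and *w-cup* (-1.07). By the adjusted p alone 17 of the 32 were lower and 6 higher, against 23.4% and 34.3% of all genes tested. *S-Lap1*, a leucyl aminopeptidase gene of sperm and the most abundant of the list, was at 2907 and 2917 FPKM in tgs1hypo testes, against 3231 and 3481 FPKM in WT testes (log2 change -0.20, limma adjusted p = 0.0761). The log2 change of *janB* was close to that of *Mst84Da*. *janB*, *Mst84Da* and *can* had been chosen by the study on these samples, and their direction is not independent evidence. The study also reports them lower in tgs1hypo testes by quantitative PCR, with the levels rescued by *tgs1* but not *moi* transgenes.

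RNA of other cell types also moved between the testis groups, and its part in the family's result was not tested. All 10 accessory gland genes looked for, of which *Acp95EF* was highest, were present and 9 passed the adjusted p with a fall, although none was called. Their summed level was 3552 and 3657 FPKM in tgs1hypo testes, against 5201 and 5432 FPKM in WT testes. All 5 muscle genes passed it with a fall and *Act57B* was called. They summed to 123 and 145 FPKM in tgs1hypo testes, against 260 and 244 FPKM in WT testes. Of all genes tested 23.4% passed the adjusted p with a fall and 7.11% were called lower.

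The summed germ cell markers were higher in tgs1hypo, although single markers differed in direction. The 5 spermatocyte markers, led by *betaTub85D* and with 2 genes that are also among the 32 sperm and spermatid genes, summed to 2645 and 2543 FPKM in tgs1hypo testes, against 2104 and 2238 FPKM in WT testes, and *twe* was called higher. By the adjusted p alone 4 of them were higher and 1 lower, *bol*, a regulator of meiotic entry at 302 and 289 FPKM in tgs1hypo testes, against 395 and 424 FPKM in WT testes (log2 change -0.47, limma adjusted p = 0.000938). The 5 early germ cell markers, led by *bgcn*, summed to 66.3 and 68.2 FPKM in tgs1hypo testes, against 56.5 and 49.4 FPKM in WT testes, and 0 were called. Of 6 hub and cyst cell genes tested, led by *chinmo*, 1 was called, the hub signal *upd1* (-1.51). By the adjusted p alone 3 of the 6 were lower, *upd1* included, and 1 was higher. Of 2 fat body genes (the higher was *Yp3*) and 2 male dosage compensation RNAs (the higher was *lncRNA:roX1*) 0 were called. Of all genes tested 34.3% were higher and 23.4% lower by the adjusted p alone, and 3.54% were called higher and 7.11% lower. The high spermatocyte markers fit the label of the tissue as testis. The early germ cell markers were far lower, and the accessory gland genes summed to more than the spermatocyte markers in every testis library.

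The 5 genes outside the family with the profile most like its mean over the 8 libraries were *CG8701*, *ocn*, *CG10252*, *CG9920* and *CG34168*. Likeness was the root mean square difference from that mean on log2(FPKM + 1), among 10372 genes in both tables, and it ran from 0.25 for *CG8701* to 0.36 for *CG34168*. Among the members it ran from 0.36 for *Mst84Dc* to 0.90 for *Mst98Cb*. *CG8701*, which has no annotated intron, was at 2126 and 2093 FPKM in tgs1hypo testes, against 2353 and 2596 FPKM in WT testes, a log2 change of -0.23. The other 4, with shortest introns of 54 to 74 bases, had log2 changes from -0.79 to -0.39. The choice used these same libraries, so a change like that of the family was built into it and these values support nothing.

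In larvae the family was at low levels, and no difference between tgs1KO and WT was found. The 6 members analysed ranged from 0.391 to 7.44 FPKM in the tgs1KO libraries, against 1.62 to 11.6 FPKM in the WT libraries. *Mst84Db* was the highest member in 3 of the 4 libraries, and *Mst87F* in the first tgs1KO library. Each level was at most 0.343% of that of the same gene in WT testes, a figure set across tables that were normalised separately.

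**Figure D5:**
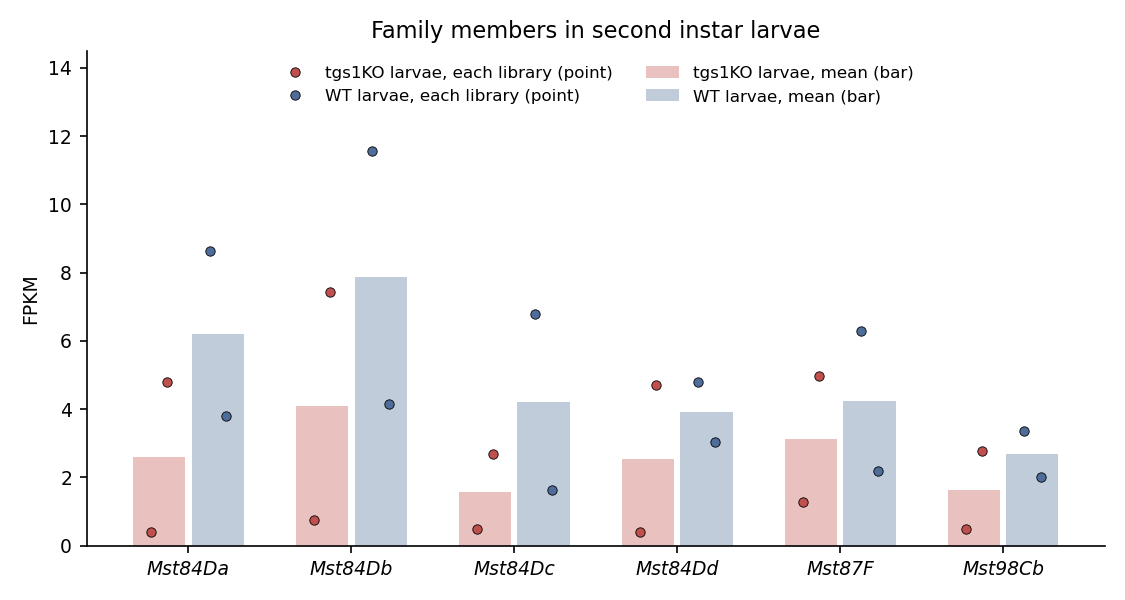
FPKM of the 6 members analysed in second instar larvae, with tgs1KO left of WT for each gene; points are the 2 libraries and bars their mean. For every member the 2 libraries of each group lie far apart, the first tgs1KO library is lowest, the first WT library is highest and the groups overlap.

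The order of the values followed the libraries and not the groups. *Mst84Da* was at 0.396 and 4.80 FPKM in tgs1KO larvae, against 8.63 and 3.80 FPKM in WT larvae. *Mst84Db* was at 0.743 and 7.44 FPKM in tgs1KO larvae, against 11.6 and 4.16 FPKM in WT larvae. *Mst87F* was at 1.28 and 4.96 FPKM in tgs1KO larvae, against 6.28 and 2.18 FPKM in WT larvae. The same order of libraries held for *Mst84Dc*, *Mst84Dd* and *Mst98Cb*, so that all 6 were lowest in the first tgs1KO library and highest in the first WT library. The groups overlapped for each of the 6, while of all genes tested in larvae 4.46% had both tgs1KO libraries below both WT libraries and 43.1% both above.

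None of the 6 was called, with log2 changes from -1.26 for *Mst84Da* (SE 0.75) to -0.39 for *Mst87F* (SE 0.61) and adjusted p from 0.579 to 0.777 by limma. No gene of the 9545 tested was called in larvae (0%), while 7.77% had an unadjusted p under 0.05, with 0.0886 as the smallest adjusted p. Without the first tgs1KO library 4 of the 6 log2 changes turned positive, and without the first WT library that of *Mst87F* did.

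The family sum was 3.78 and 27.4 FPKM in tgs1KO larvae, against 41.4 and 16.8 FPKM in WT larvae (exact two-sided permutation test, p = 0.667). Other markers set some of these libraries apart, and their part was not tested. *lncRNA:roX1*, a male-specific dosage compensation RNA, was at 177 and 131 FPKM in tgs1KO larvae, against 17.1 and 229 FPKM in WT larvae, with the low value in the library where the family was highest. *lncRNA:roX2*, the other RNA of that list, was not low in that library. It was at 8.85 and 14.9 FPKM in tgs1KO larvae, against 10.4 and 11.6 FPKM in WT larvae. *Lsp2*, a storage protein gene of the older larval fat body, was at 0.125 and 118 FPKM in tgs1KO larvae, against 0.0575 and 0.0151 FPKM in WT larvae. The 5 spermatocyte markers, of which none was at 0, summed to 4.84 and 9.31 FPKM in tgs1KO larvae, against 9.39 and 9.97 FPKM in WT larvae, and were also lowest in the first tgs1KO library.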

How the data were processed

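Poly(A)-enriched RNA was sequenced by the study on an Illumina instrument, and the study mapped reads with HISAT2 to the FlyBase genome. The authors deposited gene levels as FPKM, 1 table for testes and 1 for larvae. The paper's supplement names featureCounts and DESeq2 for expression levels. Which tool made the FPKM values, any correction for fragment length, the handling of reads that match several genes, and strand are not given in the sources used here; the first 2 matter most for mRNAs as short as these, the third for related genes. FPKM values hold no read counts, so depth is unknown. The sums of FPKM per library ran from 589777 to 825833. Ratios of low values of 1 gene between libraries of a table peaked at 1 to 1.06, although only 4.26 to 13.1% of such genes lay at the peak. Replicate libraries correlated across genes at r = 0.99 in testes and 0.93 to 0.95 in larvae.

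Within each tissue, log2(FPKM + 1) was fitted with limma 3.58.1 in R 4.3.3 (lmFit, then eBayes with a mean-variance trend), leaving out genes whose mean was under 1 FPKM, mutant minus WT with no other term. Calls needed a Benjamini-Hochberg adjusted p under 0.05 over all genes tested and a log2 change of at least 1 in size. Single values per library were compared by exact two-sided permutation tests. Python 3.11.15 with pandas 2.3.3, numpy 2.4.6, scipy 1.17.1 and matplotlib 3.10.9 did the rest. Positions, names and introns came from the BDGP6.54 annotation, which holds 98.5% of testis and 99.2% of larval identifiers. Larval loci without a FlyBase gene (1167) were not used.

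The text names the 7 members, *moi*, genes that overlap a member, the 5 genes of most similar profile, and, from each list, its called genes and its most abundant gene in testes. The exceptions are *can*, *sa*, *bol*, *fzo*, *CycB3*, *Lsp2* and *lncRNA:roX2*, named after their values were seen. The lists were spermatocyte transcription regulators, other sperm and spermatid genes, and markers of early germ cells, spermatocytes, hub and cyst cells, accessory gland, muscle, fat body and male dosage compensation. In larvae 0 genes of any list were called. The members and lists were chosen with earlier results of these data known. Alternatives were another pseudocount (0.1), other filters (none, or a mean of 5 FPKM), 3 scalings (median-of-ratios, quantile, equal sums of 1000000), no trend, a replicate block, other limits (adjusted p alone, or under 0.01), and leaving out each library.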

Additional observations from a re-analysis of the deposited data

How the results depend on the processing

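The 2 members called lower in testes were 2 under 13 of 14 alternatives and 5 with the adjusted p alone, where the number of genes called was 6548 instead of 1208, and 0 members were called higher under any. Leaving out 1 testis library gave 1137 to 1329 genes called. Quantile normalization turned *Mst98Ca* to 0.35 (adjusted p = 0.000557) and median-of-ratios scaling turned *Mst98Cb* to -0.080 (adjusted p = 0.5). The log2 ratio of the family's share was -0.92, between -0.97 and -0.87 with a library left out, and that of its summed FPKM was -1.03 after median-of-ratios scaling, against -0.92 as deposited. With a library left out, the difference of *Mst84Db* from the other members ran from -0.067 to 0.017. For these changes the cause was not tested.

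In larvae 0 members were called under any alternative, and the number of genes called was 0 except for 7 without the first tgs1KO library. With 1 library left out, *Mst84Db* ran from -2.21 to 0.068, *Mst84Dd* from -1.80 to 0.24, *Mst87F* from -1.08 to 0.31 and *Mst98Cb* from -1.29 to 0.055; the lowest came without the second tgs1KO library and the highest without the first, and *Mst87F* was at 0.21 without the first WT library. With median-of-ratios scaling the larval median over all genes was 0.01 in place of 0.25. The replicate number as a block gave 1215 genes called in testes and 0 in larvae and changed no call of a member. Deviations of libraries with the same number correlated at 0.13 in testes and -0.17 in larvae, and nothing in the labels pairs them.

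With 2 libraries a group, no permutation test can go below p = 0.333, and the spread behind a limma p rests on what all genes share. Where 1 library was left in a group, its spread was taken to be that of the other group. The depth behind each value is unknown, and 5 of 6 members were under 1 FPKM in the first tgs1KO library.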
